A study of Mus musculus with 2 samples.

Results

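The interleukin 6 family signals through receptor subunits that end on STAT3, and 10 of the 32285 genes counted in these libraries are described here by that route. They are the receptor genes Lifr, Osmr, Il6ra and Il6st, the kinase genes Jak1 and Jak2, the transcription factor gene Stat3, and the genes Socs3, Bcl6 and Pim1, which STAT3 is known to induce. The members were picked by symbol with earlier results of these libraries known. Among those were the high MIP to control ratios of Socs3, Lifr, Stat3 and Bcl6 in microglia-like nuclei. The ratios of the members between the libraries are therefore a description of what was chosen, and no test was made on them.

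The subventricular zone is the germinal layer along the lateral ventricle of the forebrain, and it holds stem cells that make neurons and glia after birth. Mouse pups became controls or underwent MIP, the modeled intestinal perforation, on postnatal day 5, and the tissue was taken 48 hours later, on day 7. Nuclei of snap-frozen tissue gave 1 library of healthy control mice and 1 library of MIP mice. The sources used here do not give the strain, the number of animals in a library or the procedure on the controls. The study's design asks how the cells of this zone differ after the perforation model.

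Members of the interleukin 6 family, such as interleukin 6, leukemia inhibitory factor and oncostatin M, each bind a receptor of their own and then share the signalling subunit gp130, the product of Il6st. The kinases JAK1 and JAK2 sit on the inner side of the receptors and phosphorylate STAT3, which enters the nucleus and binds sites of the form TTCNNNGAA, where N is any base. Among its targets is SOCS3, which blocks gp130 and the kinases and so closes the loop. In the brain the route is known from reactive astrocytes, from microglia exposed to inflammation and from the upkeep of neural stem cells.

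The control library held 16964 barcodes and 146730970 UMIs, the molecules counted, and the MIP library 12366 barcodes and 100823376 UMIs. After filtering, 14579 control and 10940 MIP nuclei were kept, with medians of 5675 and 6023 UMIs. Of these, 79 barcodes occurred in both libraries. The libraries also differed in sex-linked genes: of each 1000000 UMIs, 1748 were of Xist in control and 1.40 in MIP nuclei, and 0.313 and 473 of the summed Y-linked genes. Sex and treatment cannot be told apart in these 2 libraries. Clusters of nuclei were named from marker genes, without use of the 10 members, and a name such as microglia-like means resemblance to that cell type. Compared were the 9 classes that held 100 or more nuclei in both libraries: microglia-like (300 control and 353 MIP nuclei), astroglia-like (1162 and 1061), oligodendrocyte precursor-like (706 and 651), differentiating oligodendrocyte-like (209 and 125), cycling progenitor-like (495 and 277), neuroblast-like (1250 and 722), spiny projection neuron-like (3653 and 3478), interneuron-like (482 and 522) and excitatory neuron-like (959 and 1362). A further 3489 control and 727 MIP nuclei lay in low-depth clusters with medians of 1130 and 693 UMIs and were left out of the classes. Of these clusters, 1 held 3397 control and 47 MIP nuclei and another 92 and 680. The low-depth nuclei of the 2 libraries are thus mostly of different clusters. Within every compared class the median depth was lower in the MIP library, unlike over all kept nuclei. The medians were 5059 and 3636 UMIs in astroglia-like nuclei and 3596.5 and 2445.5 in neuroblast-like nuclei.

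Each level is the sum of a gene's UMIs over the nuclei of a class, for each 1000000 UMIs of that class in that library (CPM). Fewer nuclei that express a gene and less RNA in each cannot be told apart in such a sum. The log2 ratio is MIP over control, with an exact 95% interval that treats both sums as Poisson counts. The interval covers counting error only, since a group is 1 library and nothing measures the spread between mice. A gene is called higher or lower where the ratio is at least 1.5-fold and at least 20 UMIs were counted over both libraries.

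In microglia-like nuclei, 7 of the 9 members with enough UMIs were higher in the MIP library: Stat3, Socs3, Lifr, Jak1, Jak2, Bcl6 and Pim1. None was lower. Of all genes in that class 12.1% were higher and 22.2% lower by the same call, or 17.8% and 15.7% with TMM scaling, another way to set the libraries to a common level. The median log2 ratio was 1.72 over the 9 members and -0.11 over all genes of the class. In astroglia-like nuclei, 7 of 10 members were higher, Stat3, Socs3, Il6st, Il6ra, Osmr, Jak2 and Pim1, beside 4.91% of all genes, or 7.05% with TMM scaling. The median there was 0.68 over the members and -0.11 over all genes. With each nucleus thinned to 2000 UMIs, 3 of those calls were left, Stat3, Il6st and Jak2, whereas all 7 in microglia-like nuclei were kept. Socs3 and Il6ra in astroglia-like nuclei then fell under the minimum, to 12 and 13 UMIs, and Osmr and Pim1 under 1.5-fold. With TMM scaling Lifr, at 0.63, was called in astroglia-like nuclei as well. Stat3 and Jak2 were thus called in both classes with and without thinning.

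**Figure D1:**
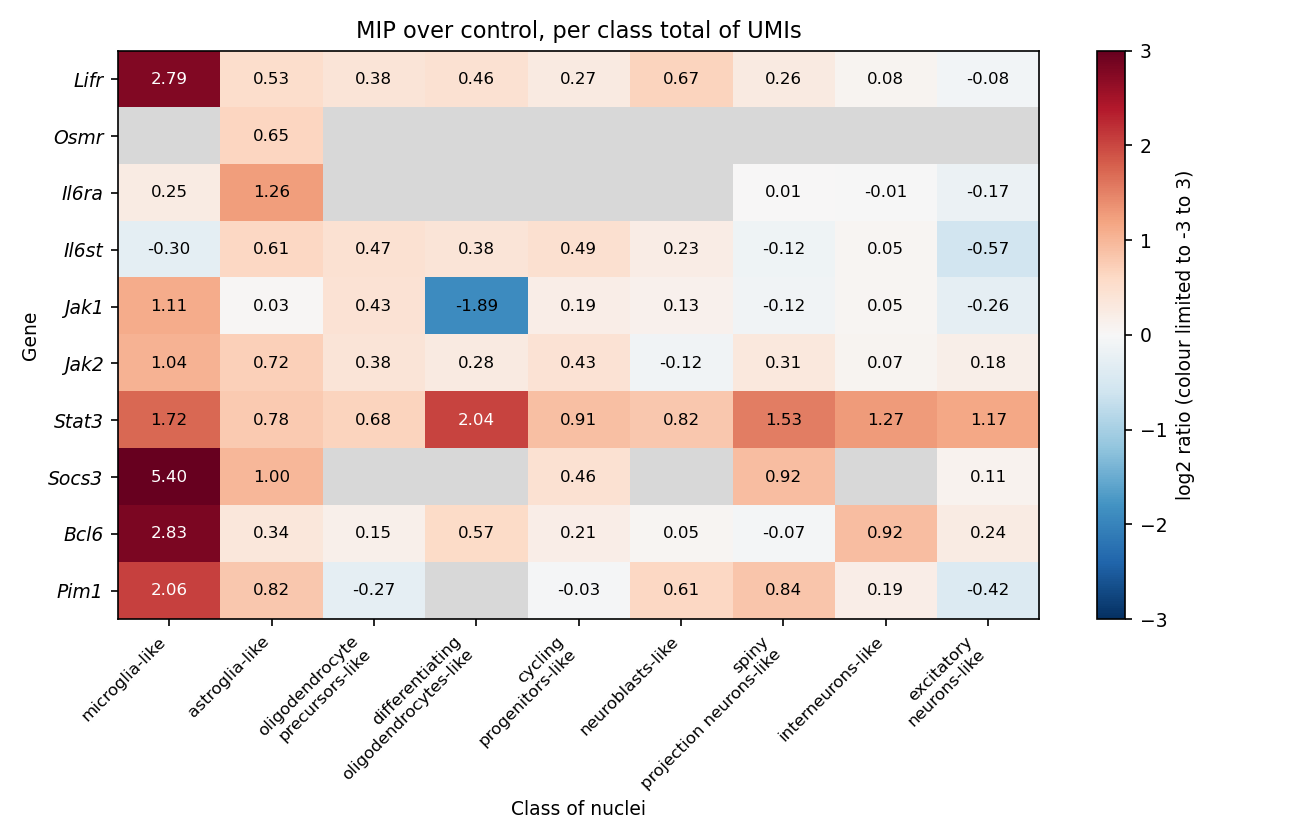
Log2 ratio of CPM, MIP over control, for the 10 genes (rows, by role) in 9 classes of nuclei (columns), with 1 library in each group; grey cells had fewer than 20 UMIs over both libraries and the colour is limited to -3 and 3. The Stat3 row is above 1.5-fold in every class, from 0.68 to 2.04, and the microglia-like column holds the high values of Socs3 (5.40), Bcl6 (2.83) and Lifr (2.79).

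Fewer members were called in the other classes. Stat3 was the single member called higher in cycling progenitor-like nuclei, 1 of 8 that passed the minimum beside 6.19% of all genes. The same held for oligodendrocyte precursor-like nuclei, 1 of 7 beside 4.26%, and excitatory neuron-like nuclei, 1 of 9 beside 3.74%. In differentiating oligodendrocyte-like nuclei Stat3 was higher and Jak1 lower among 6 members, beside 8.65% of genes higher and 17.1% lower. Interneuron-like nuclei had 2 of 8 members higher, Stat3 and Bcl6, beside 3.54%. Neuroblast-like nuclei had 3 of 7, Stat3, Lifr and Pim1, beside 6.96%, and spiny projection neuron-like nuclei 3 of 9, Stat3, Socs3 and Pim1, beside 3.2%. Summed over all nuclei, 2 of 10 members were higher, Stat3 and Socs3, beside 2.86% of all genes.

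Lifr encodes the leukemia inhibitory factor receptor, which pairs with gp130 (chr15:7090614-7197489 of mm10, plus strand). In microglia-like nuclei it had 78 UMIs in control and 517 in the MIP library, levels of 77.7 and 536 CPM. The log2 ratio was 2.79 (2.44 to 3.15). Of the compared classes astroglia-like nuclei had the highest level in the control library, at 109.9 CPM from 713 UMIs, where it was 159 in the MIP library, for a log2 ratio of 0.53 that misses the call. The order of these classes therefore differed between the libraries: astroglia-like nuclei led in the control and microglia-like nuclei in the MIP library. Border macrophage-like nuclei, too few to be compared, were above both, at 473 and 760.3 CPM from 44 and 90 UMIs. Neuroblast-like nuclei, among the classes with low levels in both libraries, had 12.8 and 20.5 CPM and a log2 ratio of 0.67 (0.07 to 1.26). In the remaining classes the log2 ratio lay between -0.08 in excitatory neuron-like nuclei and 0.46 in differentiating oligodendrocyte-like nuclei.

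**Figure D2:**
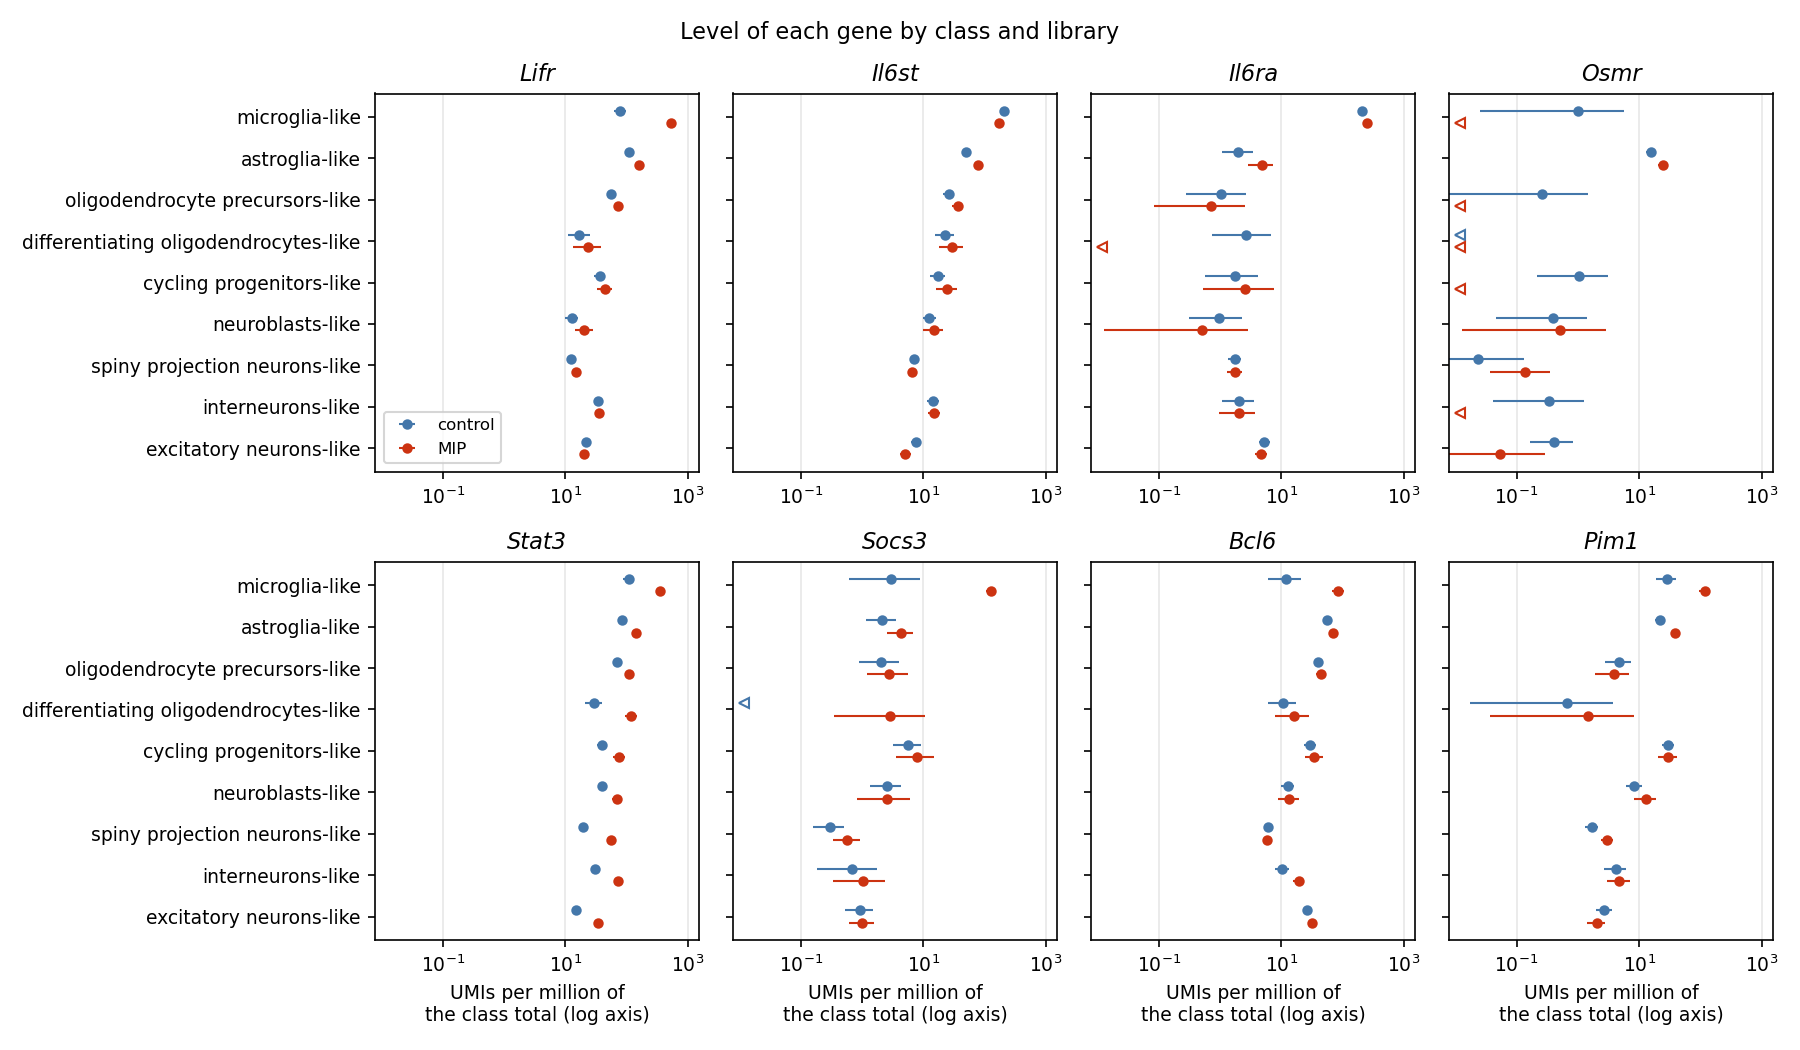
Levels of 8 of the genes in CPM (log axis) in the control (blue) and MIP (red) library of each class, with exact 95% Poisson intervals; open triangles mark 0 UMIs, which a log axis cannot show. Of these classes microglia-like nuclei stand apart for Il6ra in both libraries (211 and 252 CPM), whereas Socs3 stands apart there in the MIP library alone (2.99 in control and 126 in MIP nuclei).

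Il6st, the gene of the shared subunit gp130 (chr13:112464070-112510086, plus strand), did not follow Lifr. Microglia-like nuclei had 211 UMIs in control and 165 in MIP nuclei, which is 210.2 and 171 CPM, for a log2 ratio of -0.30 (-0.60 to 0.00). Conversely, astroglia-like nuclei had 326 and 321 UMIs, or 50.2 and 76.8 CPM, for a log2 ratio of 0.61 (0.39 to 0.84). Excitatory neuron-like nuclei were lower, at 7.64 and 5.13 CPM, with a log2 ratio of -0.57 (-0.97 to -0.18) just short of the call. The level in microglia-like nuclei was the highest of the 9 classes in both libraries, and that in astroglia-like nuclei the next.

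Il6ra encodes the receptor that binds interleukin 6 itself (chr3:89864059-89913196, minus strand). Its level was 211 CPM in control and 252 in MIP microglia-like nuclei, from 212 and 243 UMIs, for a log2 ratio of 0.25 (-0.02 to 0.53). No other of the 9 classes exceeded 5.31 CPM in either library. Astroglia-like nuclei had 13 and 20 UMIs, or 2.003 and 4.783 CPM, and the log2 ratio of 1.26 (0.18 to 2.38) rests on those few molecules. Spiny projection neuron-like nuclei had 1.75 and 1.76 CPM. The low-depth nuclei, mostly of different clusters in the control and MIP libraries, had 4.12 and 1.57. Among the compared classes Il6ra was thus high in microglia-like nuclei alone, and in both libraries; the part of free RNA in the low levels was not tested. Classes too small to be compared also held it: border macrophage-like nuclei had 322 and 245 CPM, from 30 and 29 UMIs, ependymal-like nuclei 32.8 and 52.5, and leptomeningeal fibroblast-like nuclei 13.7 and 33.8.

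Osmr encodes the oncostatin M receptor, which also pairs with gp130 (chr15:6813577-6874969, minus strand). Among the 9 classes it passed the minimum in astroglia-like nuclei alone, with 102 UMIs in control and 103 in MIP nuclei, which is 15.7 and 24.6 CPM, for a log2 ratio of 0.65 (0.24 to 1.06). The 2 astroglia-like clusters went opposite ways. The larger, led by Tnc and Slc1a3, had 64 and 97 UMIs, with the log2 ratio at 1.04, and the smaller, led by Veph1 and Slco1c1, had 38 and 6 UMIs, with the log2 ratio at -1.50. Microglia-like nuclei held 1 Osmr UMI in control and 0 in MIP nuclei. Classes too small to be compared had higher Osmr levels than astroglia-like nuclei. Endothelial-like nuclei had 79.7 and 274 CPM, from 15 and 13 UMIs, and leptomeningeal fibroblast-like nuclei 50.3 and 89.7, from 22 and 53. Mural-like nuclei had 53.2 and 78.8 CPM, from 5 and 3 UMIs. The call in astroglia-like nuclei was lost with nuclei thinned to 2000 UMIs, at a log2 ratio of 0.40.

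JAK1 and JAK2 are the kinases that the receptors carry. Jak1 (chr4:101152367-101265282, minus strand) had 161 UMIs in control and 333 in MIP microglia-like nuclei, or 160.4 and 345 CPM, for a log2 ratio of 1.11 (0.83 to 1.39). In astroglia-like nuclei its levels were 119 and 121 CPM, for a log2 ratio of 0.03 (-0.14 to 0.19). Jak1 was thus called in microglia-like and not in astroglia-like nuclei. Differentiating oligodendrocyte-like nuclei went the other way, with 80 UMIs in control and 10 in MIP nuclei, which is 54.0 and 14.5 CPM, for a log2 ratio of -1.89 (-3.01 to -0.94). The remaining 6 classes lay between -0.26 and 0.43. Jak2 (chr19:29251828-29313080, plus strand) had 69 and 136 UMIs in microglia-like nuclei, for a log2 ratio of 1.04 (0.61 to 1.48). In astroglia-like nuclei it had 335 and 356 UMIs, for a log2 ratio of 0.72 (0.50 to 0.94), and in the other 7 classes it lay between -0.12 and 0.43. The reads of Jak1 and of its neighbour Raver2, which overlap on opposite strands, may not be separable, since the strand setting of the counting is not given.

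Stat3 (chr11:100885098-100939540, minus strand) was called higher in all 9 classes, and it was the only member of which that held. Pim1 passed the minimum in 8 classes, Socs3 and Il6ra in 5 and Osmr in 1, so these members could not have met it. The share of all genes called higher in all 9 classes was not counted. In microglia-like nuclei Stat3 had 108 UMIs in control and 343 in MIP nuclei, which is 108 and 355 CPM, for a log2 ratio of 1.72 (1.41 to 2.05). Differentiating oligodendrocyte-like nuclei had 43 and 82 UMIs, or 29.0 and 119 CPM, for a log2 ratio of 2.04 (1.49 to 2.61). Spiny projection neuron-like nuclei had 837 and 1668 UMIs, or 19.5 and 56.5 CPM, for a log2 ratio of 1.53 (1.41 to 1.65). These 3 ratios have overlapping intervals. The ratio was 1.27 (1.01 to 1.54) in interneuron-like and 1.17 (0.96 to 1.38) in excitatory neuron-like nuclei. It was 0.91 (0.49 to 1.32) in cycling progenitor-like and 0.82 (0.49 to 1.13) in neuroblast-like nuclei. Astroglia-like nuclei stood at 0.78 (0.62 to 0.95) and oligodendrocyte precursor-like nuclei at 0.68 (0.44 to 0.92). The call was lost in cycling progenitor-like nuclei without the filter on genes and mitochondrial share, at 0.53, and in excitatory neuron-like nuclei thinned to 2000 UMIs, at 0.55.

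Over the compared classes the Stat3 level in the control library ran from 15.2 CPM in excitatory neuron-like nuclei to 108 in microglia-like nuclei, with astroglia-like nuclei (84.1) and oligodendrocyte precursor-like nuclei (68.5) next below. In the MIP library it ran from 34.1 in excitatory neuron-like nuclei to 355 in microglia-like nuclei, and astroglia-like nuclei were again second at 145. Next in that order were differentiating oligodendrocyte-like nuclei at 119 (94.8 to 148), whose interval overlaps that of the second. The classes with the highest and lowest levels were thus the same in both libraries.

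**Figure D3:**
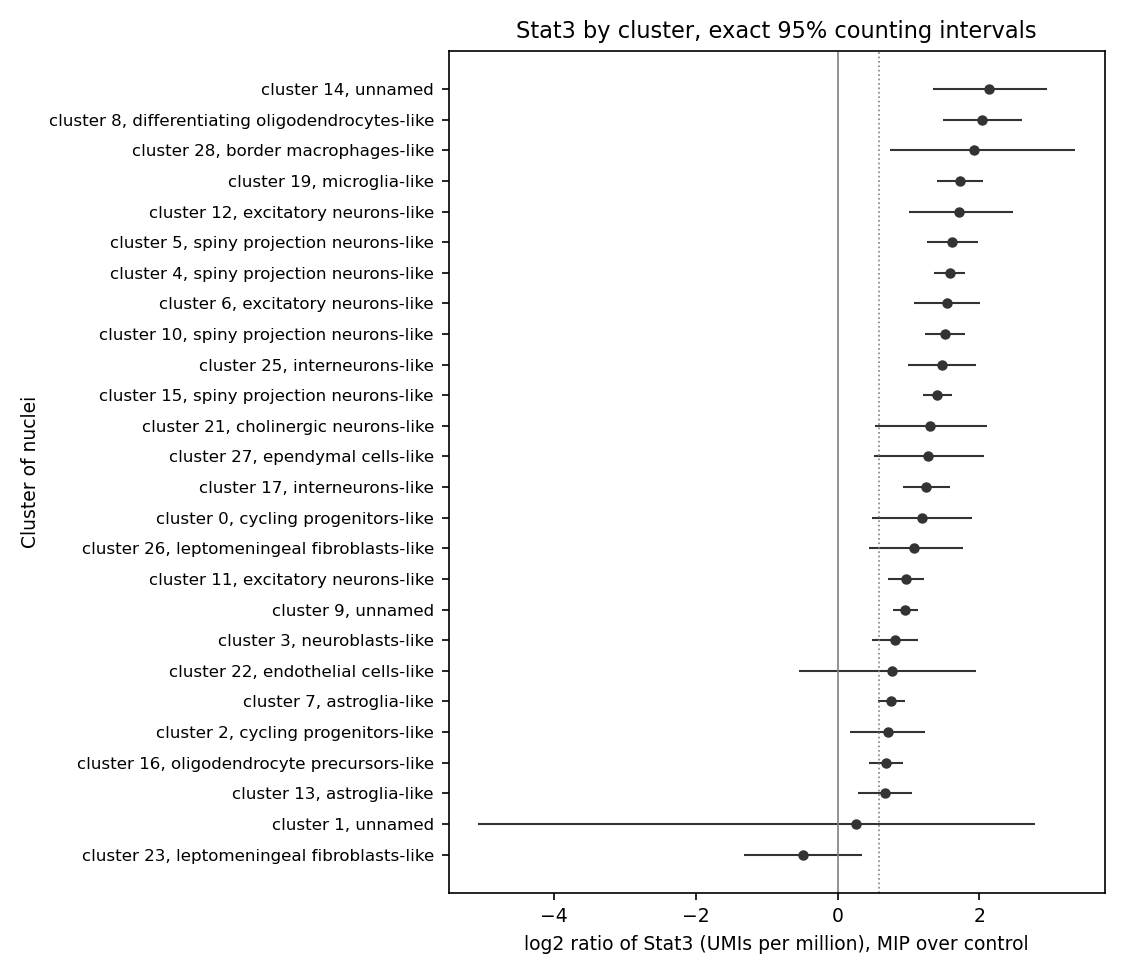
Log2 ratio of Stat3 CPM, MIP over control, in each of 26 clusters with at least 20 Stat3 UMIs over both libraries, with exact 95% counting intervals; the solid line is 0 and the dotted line 1.5-fold. Of the 26 clusters, 23 have an interval wholly above 0 and none wholly below; a leptomeningeal fibroblast-like cluster has the lowest value, -0.48.

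By cluster, Stat3 was past 1.5-fold in 24 of 26 clusters with at least 20 of its UMIs. The median of the 26 log2 ratios was 1.27. How many of all genes were past 1.5-fold in as many clusters was not counted. The low-depth nuclei are given as a gauge of RNA outside the named classes. They had 64 and 18 Stat3 UMIs, or 15.5 and 28.3 CPM, for a log2 ratio of 0.87 (0.02 to 1.64). The cluster with most of the control low-depth nuclei held 63 and 1 of these UMIs, so this ratio compares different clusters. In the control library the low-depth level was below that of every compared class but excitatory neuron-like nuclei. In the MIP library it was below all 9. The part of free RNA in the ratios of the classes was not tested. Stat3 overlaps the counted gene Stat5a on the opposite strand; Stat5a was called in 2 of the 3 classes where it passed the minimum, both times lower.

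Stat2, Stat4, Stat5b and Stat6, which encode related transcription factors, did not show this pattern. Stat2 was called higher in 1 and lower in 1 of 9 classes, and Stat5b in none of 9 in either direction. Stat4 and Stat6 passed the minimum in only 3 classes each, where Stat4 was called lower in 1 and Stat6 in none. The median log2 ratio over classes was 1.17 for Stat3 and 0.18 for Stat5b.

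Socs3 is a short gene (chr11:117966079-117970047, minus strand) whose product is the feedback inhibitor of the route. Microglia-like nuclei had 3 UMIs in control and 122 in MIP nuclei, which is 2.99 and 126 CPM, for a log2 ratio of 5.40 (3.82 to 7.70). No other compared class came near that level: the next in the MIP library was the cycling progenitor-like class at 7.78 CPM, from 9 UMIs. Classes too small to be compared were higher than that. Border macrophage-like nuclei had 10.7 and 84.5 CPM, from 1 and 10 UMIs. Their MIP interval (40.5 to 155) overlaps that of microglia-like nuclei (105 to 151). Leptomeningeal fibroblast-like nuclei had 13.7 and 33.8 CPM, from 6 and 20 UMIs. Astroglia-like nuclei had 14 and 18 UMIs, or 2.16 and 4.30 CPM, for a log2 ratio of 0.997 (-0.09 to 2.12) whose interval includes 0. The low-depth nuclei had 1.70 and 4.71 CPM, from 7 and 3 UMIs, so the astroglia-like level was about that of low-depth nuclei. Those low-depth nuclei are mostly of different clusters in the 2 libraries. Spiny projection neuron-like nuclei had 13 and 17 UMIs, with the log2 ratio at 0.92 (-0.20 to 2.09), which turned to -1.22 with nuclei thinned to 2000 UMIs. Cycling progenitor-like nuclei had 16 and 9 UMIs and excitatory neuron-like nuclei 16 and 19, with log2 ratios of 0.46 and 0.11. Each of the remaining 4 classes had fewer than 20 Socs3 UMIs over both libraries.

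Bcl6 encodes a transcriptional repressor (chr16:23965052-23988852, minus strand). In microglia-like nuclei it had 12 UMIs in control and 82 in MIP nuclei, which is 11.95 and 84.98 CPM, for a log2 ratio of 2.83 (1.95 to 3.84). In the control library that class had 1 of the lower Bcl6 levels among the compared classes, below astroglia-like nuclei at 55.5, and in the MIP library the highest, above astroglia-like nuclei at 70.1. Interneuron-like nuclei had 60 and 95 UMIs, for a log2 ratio of 0.92 (0.44 to 1.41). The other 7 classes lay between -0.07 and 0.57. Pim1, the gene of a serine/threonine kinase that promotes survival and growth (chr17:29490753-29496112, plus strand), had 28 and 112 UMIs in microglia-like nuclei, or 27.9 and 116 CPM, for a log2 ratio of 2.06 (1.45 to 2.71). In astroglia-like nuclei it had 141 and 160 UMIs, for a log2 ratio of 0.82 (0.48 to 1.15). In spiny projection neuron-like nuclei it had 72 and 89 UMIs, for a log2 ratio of 0.84 (0.38 to 1.31). With 43 and 25 UMIs, neuroblast-like nuclei stood at 0.61 (-0.16 to 1.36), an interval that includes 0. Pim1 was thus higher in 4 classes, with the highest ratio in microglia-like nuclei. Bcl6 and Pim1 also overlap counted genes on the opposite strand, Gm37419 and Gm26885.

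The promoters of Socs3 and Bcl6 are shown because both genes went from few UMIs to many in microglia-like nuclei and because both hold the letters that STAT proteins are known to bind. The sequences are from RefSeq on GRCm38.p6, the same build as mm10, and are written 5′ to 3′ on the strand of the gene, with each match to TTCNNNGAA in capitals. The first is chr11:117969467-117969616, minus strand, upstream of the RefSeq start of Socs3, and the second is chr16:23981334-23981473, minus strand, upstream of a RefSeq start of Bcl6. Both stretches lie inside the annotated gene given above, and neither overlaps an annotated exon.
Socs3: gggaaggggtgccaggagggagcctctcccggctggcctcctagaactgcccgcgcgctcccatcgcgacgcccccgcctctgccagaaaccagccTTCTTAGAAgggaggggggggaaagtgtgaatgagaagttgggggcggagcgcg
Bcl6: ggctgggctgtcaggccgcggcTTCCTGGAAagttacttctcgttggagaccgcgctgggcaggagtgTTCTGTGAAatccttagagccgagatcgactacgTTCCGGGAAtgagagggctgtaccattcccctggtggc
The pattern reads the same on both strands. There is 1 match 154 bases before the Socs3 start, and 3 matches lie 168, 122 and 88 bases before this Bcl6 start. Of the Bcl6 windows, the one with more matches was printed. The other, at the start of the annotated gene, holds 1 match. In windows from 250 bases before to 50 bases after a start, 2726 of 32851, or 8.30%, hold at least 1 match, and 11, or 0.0335%, hold 3 or more. All 10 genes had a window, 13 windows in all, of which 3 hold a match, in 2 genes: Socs3 with 1 window and Bcl6 with both of its windows. A match is a run of letters and not a measured binding site.

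The share of nuclei with a UMI was compared after each nucleus was thinned to 2000 UMIs, which left 281 control and 276 MIP microglia-like nuclei and left out 19 and 77 shallower ones. A Socs3 UMI was present in 0.712% of control nuclei (0.086 to 2.55) and 17.4% of MIP nuclei (13.1 to 22.4), with exact Clopper-Pearson intervals. Before thinning the shares were 1% and 24.4%. In spiny projection neuron-like nuclei, which served as the background class, a Socs3 UMI was present in 0.137% and 0.0589% of 3647 and 3394 thinned nuclei. The unthinned medians of that class were 10253 and 7566.5 UMIs, and those of microglia-like nuclei 3102 and 2659. The share in MIP microglia-like nuclei was thus far above the background share, although most of those nuclei held no Socs3 UMI at this depth.

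A Stat3 UMI was present in microglia-like nuclei at 18.9% (14.5 to 23.9) in control and 51.1% (45.02 to 57.13) in MIP, and in 3.26% and 11.0% of spiny projection neuron-like nuclei. A Lifr UMI was present in 15.7% (11.6 to 20.4) and 59.8% (53.7 to 65.6) of microglia-like nuclei. For Bcl6 the shares were 2.85% and 14.1%, for Pim1 4.98% and 18.8%, for Jak1 31.3% and 48.6%, and for Jak2 14.2% and 24.3%. The intervals of the 2 libraries did not overlap for Socs3 or for any of these genes. They did overlap for Il6st, at 32.7% and 27.9%, and for Il6ra, at 32.4% and 37.7%.

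**Figure D4:**
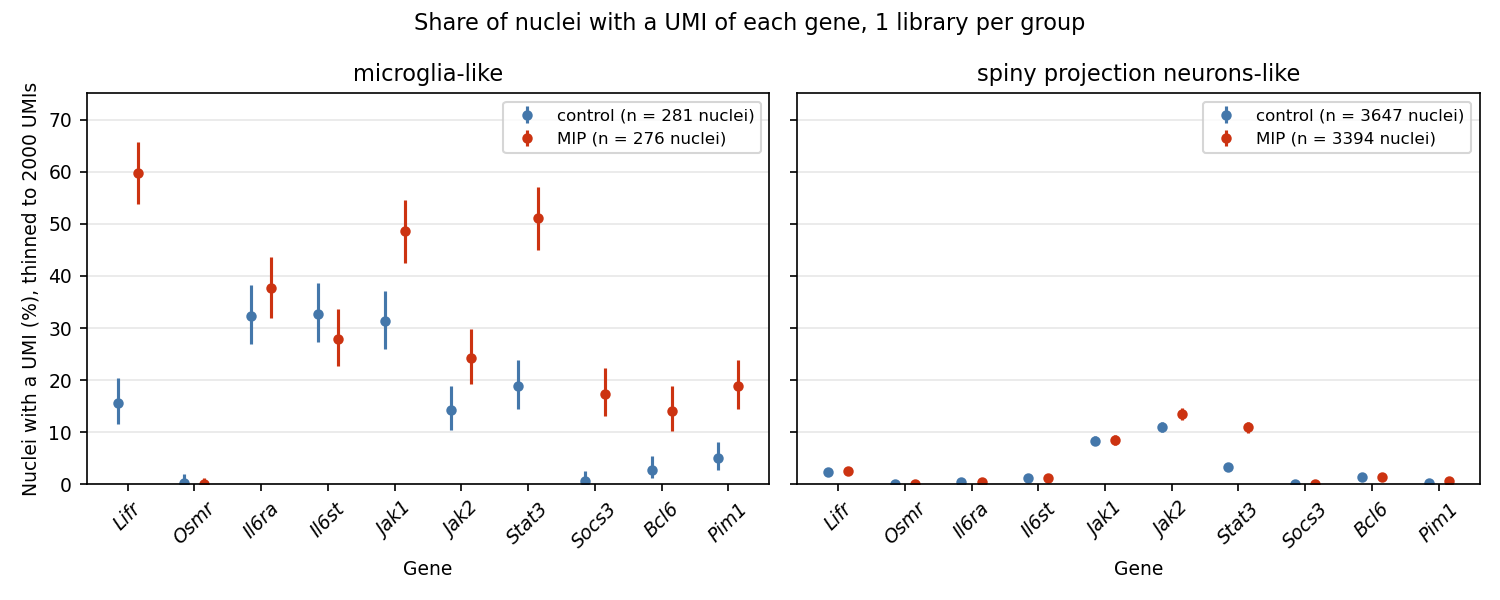
Percent of nuclei with at least 1 UMI of each gene after thinning to 2000 UMIs, in microglia-like nuclei (left) and in spiny projection neuron-like nuclei (right), with exact 95% binomial intervals, control in blue and MIP in red. In microglia-like nuclei Lifr goes from 15.7% to 59.8% and Socs3 from 0.712% to 17.4%, whereas Il6st and Il6ra have overlapping intervals.

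The number of these genes in 1 nucleus was counted for Socs3, Stat3, Lifr, Bcl6 and Pim1, which were picked with their high ratios known; the kinase genes and the other receptor genes were left out. Joint counts rise with the share of each gene, so they are no separate observation. Of the thinned microglia-like nuclei, 63.0% of control and 9.42% of MIP nuclei had none of these genes. A single gene was present in 31.3% and 39.1%, 2 genes in 5.34% and 35.5%, and 3 or more in 0.356% and 15.9%. Lifr and Il6st, the pair that binds leukemia inhibitory factor, were found together in 3.91% of control and 18.5% of MIP microglia-like nuclei. Il6ra and Il6st were found together in 11.4% (7.92 to 15.7) and 8.70% (5.65 to 12.7), with overlapping intervals. Osmr and Il6st were found together in 1 control nucleus and in 0 of 276 MIP nuclei.

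Within the MIP library, the share of nuclei with Socs3 was also read by whether a receptor UMI was present. A Socs3 UMI was present in 14.5% (24 of 165) of microglia-like nuclei with a Lifr UMI and in 21.6% (24 of 111) of those without, with overlapping intervals (9.55 to 20.9 and 14.4 to 30.4). The shares were 20.8% and 16.1% with and without an Il6st UMI, and 19.2% and 16.3% with and without an Il6ra UMI. For Stat3 the shares were 47.3% with and 56.8% without a Lifr UMI. All of these pairs have overlapping intervals, and the direction differed between the receptor genes. In control astroglia-like nuclei a Stat3 UMI was present in 33.3% (14 of 42, 19.6 to 49.5) of those with an Osmr UMI. Without an Osmr UMI the share was 13.6% (11.6 to 15.7), an interval that does not overlap. In MIP astroglia-like nuclei these shares were 30.4% (17.7 to 45.8) and 23.2% (20.5 to 26.0). The other receptor splits in astroglia-like nuclei had overlapping intervals. In a nucleus thinned to 2000 UMIs the absence of a receptor UMI does not show that the receptor gene was silent.

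Over the classes, the level of a receptor gene was set beside the ratio of each target. The correlations are descriptions over 8 or 9 classes, which share 2 libraries, their depth and their scaling. There were 40 pairings, with the receptor level taken in each library in turn, and each gave Pearson's r and Spearman's rho, with and without microglia-like nuclei. At its control level Il6ra had r of 0.95 with the Socs3 ratio over 8 classes, of which 5 had at least 20 Socs3 UMIs, and 0.94 with the Bcl6 ratio over 9. Without microglia-like nuclei these were -0.11 and 0.29, so both rest on that class. Spearman's rho of Il6ra with Bcl6 was 0.83, and 0.76 without microglia-like nuclei, but 0.45 and 0.21 at the MIP level of Il6ra, and 4 of the classes had only 4 or 5 Il6ra UMIs in the control library. Il6st had r of 0.86 with the Socs3 ratio and 0.39 without that class. For the Stat3 ratio the signs differed between receptor genes: at their control levels r was 0.18 with Il6st, -0.29 with Lifr and 0.49 with Il6ra, and rho was -0.10, -0.37 and 0.63. Without microglia-like nuclei r was -0.30, -0.56 and 0.43, and rho -0.50, -0.67 and 0.52. At the MIP level of Il6ra these last values were -0.39 and -0.29. Stat3 was called in classes with high and with low receptor levels alike.

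**Figure D5:**
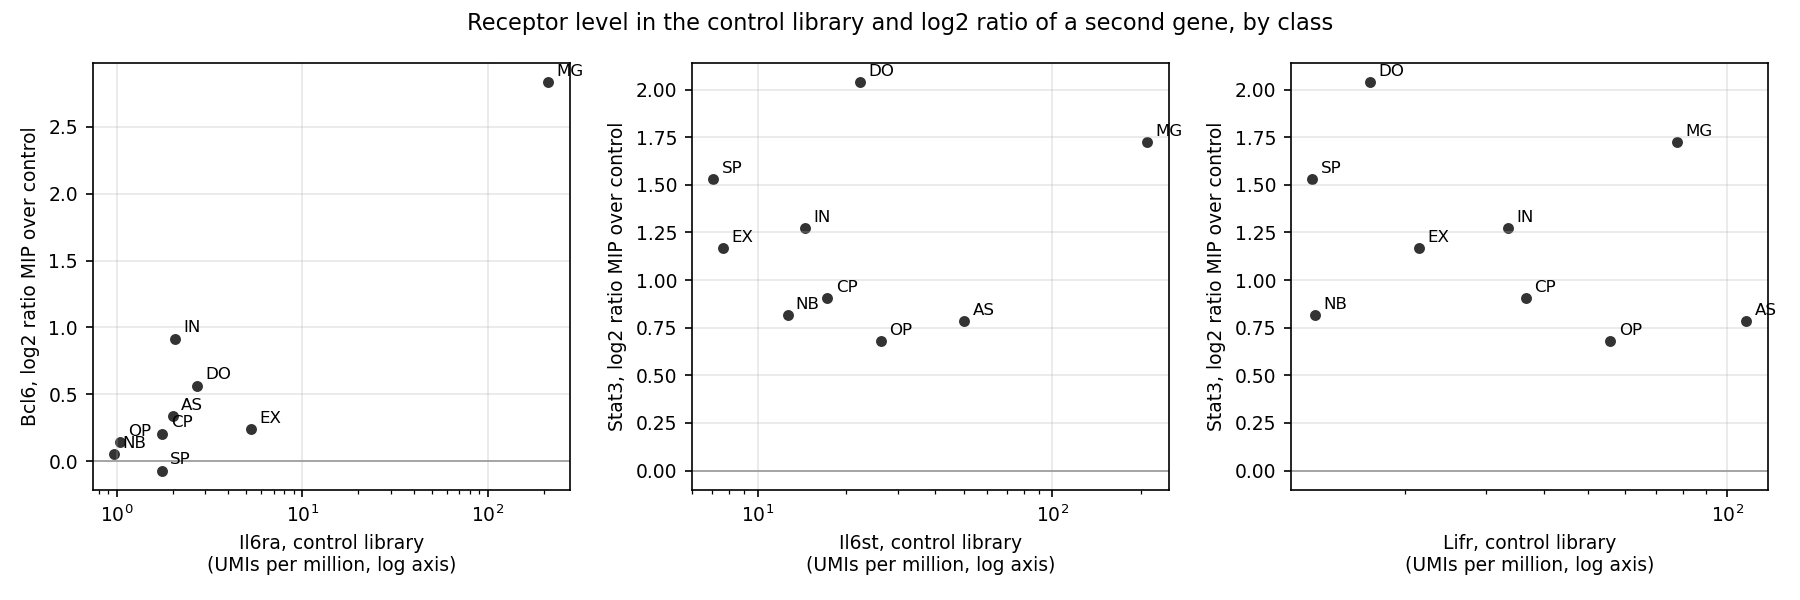
Level of a receptor gene in the control library (CPM, log axis) and the log2 ratio, MIP over control, of a second gene, with 1 point for each class: MG microglia, AS astroglia, OP oligodendrocyte precursor, DO differentiating oligodendrocyte, CP cycling progenitor, NB neuroblast, SP spiny projection neuron, IN interneuron and EX excitatory neuron-like nuclei. In the Il6ra and Bcl6 panel the microglia-like point stands alone at 211 CPM and 2.83; in the Stat3 panels r is 0.18 for Il6st and -0.29 for Lifr.

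Markers of related cells moved with the microglia-like class and are given here beside its ratios. The 8 border macrophage markers summed to 415 CPM in control and 800.1 in MIP nuclei. Stab1, with 236 UMIs, held most of the control sum and had 162 in the MIP library, where Mrc1, with 174 and 441, and F13a1, with 3 and 149, held most. Of the defining markers Lyve1 was at 0 in both libraries, Cbr2 at 0 in the control and Cd163 at 0 in the MIP library. In the 112 control and 125 MIP microglia-like nuclei without a UMI of these markers, the log2 ratio was 5.53 for Socs3 and 1.92 for Stat3, and the same 7 members were higher. That Socs3 value rests on at most the 3 control UMIs of the whole class. The absence of a marker UMI does not show that the marker gene was silent, so the part of border macrophages was not tested. The 14 microglia markers summed to 10263 and 10709.9 CPM, and neutrophil and monocyte markers to 8 UMIs in control and 1 in the MIP library. Markers of several other cell types were lower in the MIP microglia-like nuclei. Those of neuroblasts summed to 1149.5 and 502 CPM, of cycling progenitors to 843 and 491, of oligodendrocyte precursors to 386 and 201, of interneurons to 1756 and 944, of spiny projection neurons to 1804 and 1199, of astroglia to 494 and 290.2 and of endothelial cells to 83.7 and 33.2. Their part in the microglia-like ratios was not tested. In astroglia-like nuclei the microglia markers summed to 533 and 807 CPM and the astroglia markers to 8633 and 10506; their part in the astroglia-like ratios was not tested.

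Of 64 other genes of the route, 40 passed the minimum in microglia-like nuclei, where 11 were higher and 4 lower (beside 12.1% and 22.2% of all genes), with a median log2 ratio of 0.27. Of the known targets, 8 of 15 were higher, Cebpd, Junb, Bcl3, Pim2, Il4ra, Gadd45g, C4b and Irf1, and 3 were lower, Pim3, Ccnd1 and Vegfa. Bcl3, which encodes a partner of NF-kappaB, had 7 and 72 UMIs, for a log2 ratio of 3.42 (2.30 to 4.78). Il4ra, the interleukin 4 receptor gene, had 35 and 118 UMIs, for a log2 ratio of 1.81 (1.26 to 2.40). Among 13 inhibitors, the phosphatase genes Ptpn1 and Ptpn2 were higher and Pias3 lower, and Ptpn1 had 178 and 460 UMIs, for a log2 ratio of 1.43 (1.17 to 1.69).

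In astroglia-like nuclei 43 of the 64 genes passed, with 5 higher, 5 lower (beside 4.91% and 15.2% of all genes) and a median of -0.12. The 5 higher were all targets, Cebpd, Fos, Pim3, Fosl2 and Il1r1. Pim3, a kinase gene related to Pim1, had 84 and 129 UMIs, for a log2 ratio of 1.25 (0.85 to 1.67), and Fos, an early response gene, 45 and 76, for a log2 ratio of 1.39 (0.84 to 1.96). Pim3 was thus higher in astroglia-like and lower in microglia-like nuclei. In spiny projection neuron-like nuclei 4 of 56 genes were higher and 12 lower (beside 3.2% and 16.7%); Il31ra, the interleukin 31 receptor gene, had 245 and 69 UMIs, for a log2 ratio of -1.29 (-1.70 to -0.90), and Mcl1, a survival gene, 1096 and 435, for a log2 ratio of -0.80 (-0.96 to -0.63). In differentiating oligodendrocyte-like nuclei 4 of 25 were higher and 3 lower (beside 8.65% and 17.1%), and Vegfa, a vascular growth factor gene, had 112 and 16 UMIs, for a log2 ratio of -1.70 (-2.56 to -0.94).

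The ligand genes were scarce in nuclei of this zone. Over all nuclei Il6 had 17 UMIs in control and 4 in the MIP library, Lif 4 and 0, and Osm 8 and 6. Cntf had 50 and 29 UMIs and Clcf1 64 and 48. No ligand gene was called higher over all nuclei, and 5 of the 9 that passed the minimum were lower, beside 20.7% of all genes. Cntfr, the gene of the ciliary neurotrophic factor receptor, had 2873 and 1671 UMIs, for a log2 ratio of -0.32. Of the other inhibitors of this family, Socs1 had 148 and 144 UMIs (log2 ratio 0.43), Socs2 4835 and 3155 (-0.15) and Cish 155 and 45 (-1.32, -1.83 to -0.83). Socs3 was thus the one member of the Socs and Cish genes named here that was called higher over all nuclei, with 113 and 253 UMIs, for a log2 ratio of 1.63 (1.30 to 1.96), of which microglia-like nuclei held 3 and 122.

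The genes with the most similar pattern over the 18 class-by-library levels were ranked by Pearson's r among 15834 genes. Those for Socs3 were Ubn1, Prkag1, Mkln1, Cul3 and Atf1, with r from 0.89 to 0.90. Those for Stat3 were Mkln1, Rbm39, Kdm3b, Rab21 and Max, with r from 0.86 to 0.89. Those for Lifr were Il15ra, Dab2, Nfkb1, Ston1 and Fbxo4, with r from 0.91 to 0.92. The points share libraries and depth, and likeness of a pattern over 18 points says nothing of shared control.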

How the data were processed

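Single-nucleus RNA was counted in 1 control and 1 MIP library of the mouse subventricular zone, and the labels gave the groups. The authors deposited unnormalized UMI counts for every gene and barcode. Per the file headers they used Cell Ranger 5.0.1, with mm10 as build, per the submitters' processing notes. Annotation release, counting of introns, strand setting, barcode filter and pooling of animals: not given in the sources used here. The 10 members, the pathway list and the alternatives were chosen with earlier results of these data known.

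Barcodes with fewer than 500 genes (0 control and 204 MIP) or over 5% mitochondrial UMIs (114 and 48) were left out. Scrublet in Scanpy 1.11.5 marked 0 barcodes in both libraries by its automatic threshold, so the highest scores were removed instead, at 0.8% for each 1000 barcodes: 2271 control and 1174 MIP barcodes. Doublets that remain and free RNA bear on low values. Both libraries were clustered together on log counts per 10000, with 3000 variable genes, 40 principal components, 20 neighbours and Leiden clustering at resolution 1. The members and the 64 pathway genes were not used to cluster. Names of the 30 clusters needed at least 3 marker genes among their 60 leading genes, and 1655 control and 1429 MIP nuclei stayed unnamed. In 1 of the spiny projection neuron-like clusters interneuron markers were as many as its own, 3 of each. Classes of 20 to 99 nuclei were not compared.

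UMIs were summed by class and library and divided by the class total. Ratios have exact conditional Poisson intervals and shares exact Clopper-Pearson intervals at 95%; the ratio intervals were tested on simulated data. They cover counting error only. With 1 library in each group no test across mice can be made. All 10 members are named in every class. Pathway genes were named if they had 60 or more UMIs in the higher library and an interval wholly beyond 1.5-fold, and Il6, Lif, Osm, Cntf, Clcf1, Cntfr, Socs1, Socs2 and Cish by their counts over all nuclei. Stat2, Stat4, Stat5b and Stat6, the other called targets and the overlapping genes were named after their values were seen. Genes most like Socs3, Stat3 and Lifr were ranked on log2(CPM + 1) among genes with at least 200 UMIs. Gene positions are from GENCODE M21, where all 10 members matched by identifier. Alternatives changed the doublet removal, the filters, the scaling (TMM in edgeR 4.0.16), the depth, the weighting of nuclei, the class assignment, the fold and the minimum.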

Additional observations from a re-analysis of the deposited data

Results flagged for a closer look

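Members whose log2 ratio, MIP over control, went opposite ways in different named clusters are given here. Among clusters called higher, the one with the highest lower interval bound is given, followed by those in the other direction. It need not have the highest ratio: over all clusters with at least 20 UMIs the maximum was 3.93 for Bcl6 and 1.30 for Il6st. The differences between clusters were not tested. Lifr stood at 2.79 in microglia-like nuclei, at -0.91 in an excitatory neuron-like cluster with Nr4a2 and Ntng2 among its leading genes, and at -1.98 in a leptomeningeal fibroblast-like cluster led by Ptgds and Slc6a13. Jak1 stood at 1.11 in microglia-like and -1.89 in differentiating oligodendrocyte-like nuclei. Bcl6 stood at 2.83 in microglia-like nuclei and -0.64 in the spiny projection neuron-like cluster led by Ebf1 and Drd1. Il6st stood at 0.68 in the astroglia-like cluster led by Tnc and Slc1a3, at -0.93 in the excitatory neuron-like cluster led by Tafa1, and at -0.60 in the Ebf1 and Drd1 cluster. Osmr stood at 1.78 in endothelial-like nuclei, at 1.04 in the astroglia-like cluster led by Tnc and Slc1a3, and at -1.50 in the one led by Veph1.

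Small classes outside the comparisons also held member UMIs above the control level. Border macrophage-like nuclei (22 control and 24 MIP) had log2 ratios of 1.93 for Stat3, 0.69 for Lifr, 0.90 for Jak1, 1.37 for Pim1 and 2.98 for Socs3, the last from 1 and 10 UMIs. Leptomeningeal fibroblast-like nuclei (56 and 111) had 0.61 for Stat3, 0.83 for Osmr, 0.75 for Jak1, 0.85 for Jak2 and 2.15 for Bcl6, the last from 4 and 24 UMIs, but -1.09 (-2.17 to -0.05) for Lifr. Their Stat3 value joins 2 clusters that went opposite ways, at 1.08 and -0.48. Stat3 stood at 1.31 in cholinergic neuron-like nuclei (52 and 51) and at 1.28 in ependymal-like nuclei (50 and 26). Jak2 stood at 1.09 in ependymal-like and 1.33 in endothelial-like nuclei, and Osmr in endothelial-like nuclei (22 and 11) had 15 and 13 UMIs, the ratio of 1.78 given above.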

How the results depend on the processing

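In microglia-like nuclei the same 7 members were higher under every alternative run, with Socs3 between 4.782 and 5.604 and Stat3 between 1.63 and 1.92. In astroglia-like nuclei the 7 members became 3 with nuclei thinned to 2000 UMIs and 1 at a fold of 2, and lay between 5 and 8 under the others. The astroglia-like nuclei were not the same under all alternatives. Without doublet removal, without the filters, or with members allowed among the variable genes, the cluster with Veph1 and Slco1c1 was named ependymal-like. Without doublet removal the class also held a cluster of 573 control and 381 MIP nuclei with medians of 15020 and 11132 UMIs. The share of MIP microglia-like nuclei with a Socs3 UMI was 17.4% thinned and 24.4% unthinned, and the ratio of Socs3 in spiny projection neuron-like nuclei turned to -1.22 with thinning. Of 250 recomputed values of the 27 calls, 224 kept the call, 20 fell under 1.5-fold, 5 under 20 UMIs and 1 turned. Under 20 UMIs were Socs3 in astroglia-like nuclei (no filter, and thinned) and spiny projection neuron-like nuclei (by marker scores, and named alike) and Il6ra in astroglia-like nuclei (thinned). Under 1.5-fold were Stat3 in cycling progenitor-like (0.53, no filter) and excitatory neuron-like nuclei (0.55, thinned), Socs3 in spiny projection neuron-like nuclei (0.55, no filter, and 0.04, largest cluster), Bcl6 in interneuron-like nuclei (0.36, marker scores), Lifr and Pim1 in neuroblast-like nuclei under 4 alternatives each (lowest 0.24 and 0.09), and Pim1 in spiny projection neuron-like nuclei (0.55, no doublet removal). In astroglia-like nuclei Il6st (0.52, nuclei weighted equally), Osmr (0.40, thinned, and 0.31, weighted equally), Jak2 (0.48, no doublet removal) and Pim1 (0.57, no doublet removal, and 0.42, thinned) were under it. The cause of these changes was not tested.

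TMM scaling shifted all log2 ratios of a class by 0.16 in microglia-like, 0.17 in excitatory neuron-like, 0.14 in spiny projection neuron-like and 0.11 in interneuron-like nuclei. It moved the share of all genes higher and lower from 3.74% and 18.04% to 6.90% and 11.2% in excitatory neuron-like, from 3.2% and 16.7% to 5.40% and 11.1% in spiny projection neuron-like, from 3.54% and 17.2% to 5.83% and 12.6% in interneuron-like, and from 4.26% and 15.5% to 6.23% and 11.7% in oligodendrocyte precursor-like nuclei. Restricting classes to nuclei that clusters and marker scores name alike, and leaving out nuclei with a border macrophage marker UMI, were chosen after seeing the data. No paired analysis was possible because each group has 1 library. Depth limits Osmr, which had 20 UMIs or more in 1 of the 9 compared classes, Socs3 and Il6ra, which had them in 5, and Pim1 in 8. Sex cannot be told apart from the treatment.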
